A study of Rattus norvegicus with 30 samples.

Results

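The testis of the Wistar Han rat was compared between 8.5 and 14.5 days post-partum (dpp), the interval over which the intact gonad approaches the onset of meiosis. The comparison was defined by the ages on the sample labels and used 5 of the 30 libraries of the series, namely 3 testes of 8.5 dpp and 2 testes of 14.5 dpp, each from a different animal. These tissues were neither cultured nor treated, and no transgene or deletion was involved. The remaining 14.5 dpp library, which the labels call an outlier, held a value of 0 at all 17322 genes and was left out. Beside these testes, 3 libraries of explants that were dissected at 8.5 dpp and cultured for 6 days on agarose gels, and 3 testes of 24.5 dpp, were used only to show where the 6-day change in vivo differed and how far it went on. The culture medium contained serum replacement, retinol and vitamin E. Each cultured library pooled explants of several males.

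In the postnatal testis, spermatogonial stem cells give rise to undifferentiated spermatogonia, which become KIT-positive differentiating spermatogonia under the action of retinoic acid. After their last divisions these cells enter meiosis as preleptotene spermatocytes, replace mitotic by meiotic cohesins and build the synaptonemal complex, the protein axis along which homologous chromosomes pair and recombine. Over the same days Sertoli cells leave their proliferative state, and fetal Leydig cells give way to the adult lineage. The blood-testis barrier, which Sertoli cells form, is completed later. In the authors' tracer assay no functional barrier was seen at the older age compared here, and tubules with an intact barrier appeared only in older testes.

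Gene levels were deposited as FPKM, fragment numbers scaled by the length of the transcript and the size of the library. Differences are given on the log2(FPKM + 1) scale, which understates the change of genes with low values, and a ratio is a ratio of group means in FPKM. A gene was tested when its median reached 0.5 FPKM at either age, and it was called when its adjusted p-value (limma, Benjamini-Hochberg) was at most 0.05 and the medians of the groups differed by a ratio of at least 2. "Rose" and "fell" are used of called genes only. In bulk tissue, fewer cells of a type, less RNA per cell and a larger share of other cells cannot be told apart.

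The 14.5 dpp testes were less alike than the 8.5 dpp testes. At 389 genes they lay 1 or more log2 units apart, against 172 to 192 genes for pairs of 8.5 dpp testes, and testis 2 lay further from the 8.5 dpp level than testis 1 at 88.0% of the genes that rose and 81.0% of those that fell. Read counts were not used here and the depth is unknown, but the spacing of the lowest values placed the 5 libraries within a relative depth of 0.996 to 1.19 of the first 8.5 dpp library. Between 12520 and 13075 genes were above 0 in each of the 5 libraries. Defining genes of the tissue, such as Dazl and Ddx4 of germ cells, Sox9 and Wt1 of Sertoli cells and Cyp17a1 of Leydig cells, were above 0 in all 5 testes. Some exact zeros of the file may be failed estimates, since ubiquitous genes such as Hmgb2, a chromatin protein, and Tomm7, a mitochondrial import subunit, were listed at 0 in all 8.5 dpp libraries. Of the 1769 genes called, 117 were listed at 0 in at least 1 of the 5 libraries.

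From 8.5 to 14.5 dpp, 994 genes rose and 775 fell among 11253 tested. The share called was 15.7%, with 8.83% higher and 6.89% lower at 14.5 dpp, and these shares are the background for the counts given for each gene group below. An unadjusted limma p below 0.05 was reached by 5884 of the 11253 genes tested, and 6211 had a positive and 5042 a negative difference. Group counts of unadjusted p-values and of signs are to be read beside these. The gene groups were chosen with earlier results of these data known, so their counts are descriptive. Scaling each library to the same median turned the balance of calls to 823 higher and 976 lower. That scaling moved the median difference of all tested genes from 0.07 to -0.03, and 1598 of the 1769 called genes were called again. None of the 98 genes called within the gene groups changed direction with it. A shift this small could hardly turn a gene that meets the required ratio, so the unchanged directions do not show that these calls are robust. All 1769 called genes had values that did not overlap between the ages, but so did 67.4% of the genes tested.

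The largest rise of a gene measured above 0 in all 5 testes was that of Dmrtb1, a transcription factor of the spermatogonial switch from mitosis to meiosis. Its FPKM was 0.643, 0.332 and 0.710 at 8.5 dpp and 31.3 and 46.6 at 14.5 dpp, a ratio of 69.3. All values of 14.5 dpp were far above those of 8.5 dpp (log2 difference 4.66, SE 0.21, adjusted p = 0.00115). Epyc, a small leucine-rich proteoglycan, rose from 0.981, 0.712 and 1.10 FPKM to 24.1 and 47.5 FPKM, and Elovl2, which elongates polyunsaturated fatty acids, rose from 10.0, 10.3 and 6.77 FPKM to 78.4 and 152 FPKM. Among the 10 largest rises, Hmgb2, Tomm7, Rrm2, Uqcc2 and Tex12 were listed at 0 in all 3 testes of 8.5 dpp. Bloc1s1 and Dnajc2 were listed at 0 in at least 1 of them.

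The largest falls included several genes that were nearly silent at 14.5 dpp. Gldn, a secreted gliomedin, had 65.3, 58.9 and 64.5 FPKM at 8.5 dpp and 3.85 and 0.211 FPKM at 14.5 dpp. Angptl8, a secreted regulator of lipid metabolism, went from 24.4, 24.3 and 25.4 FPKM to 0.481 and 0.135 FPKM. Sostdc1, a secreted antagonist of BMP and WNT signalling, went from 23.5, 23.6 and 25.0 FPKM to 1.19 and 0.601 FPKM. Aqp12a, Hhatl, Scn4b and Rpl28l1 were also among the 10 largest falls. Rpl28l1 read 11.6, 9.21 and 12.5 FPKM at 8.5 dpp and was listed at 0 in both 14.5 dpp testes. It was also at 0 in every library of 24.5 dpp, 53.5 dpp and the 6-day culture. Whether its values are failed estimates was not tested. Pdp1, a mitochondrial phosphatase, read 34.3, 37.0 and 37.2 FPKM at 8.5 dpp and 0.0999 and 0.143 FPKM at 14.5 dpp, but its value also switched between near 0 and high among the replicates of the 6-day culture, where its SD was 27.7 FPKM around a mean of 32.1 FPKM.

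**Figure D1:**
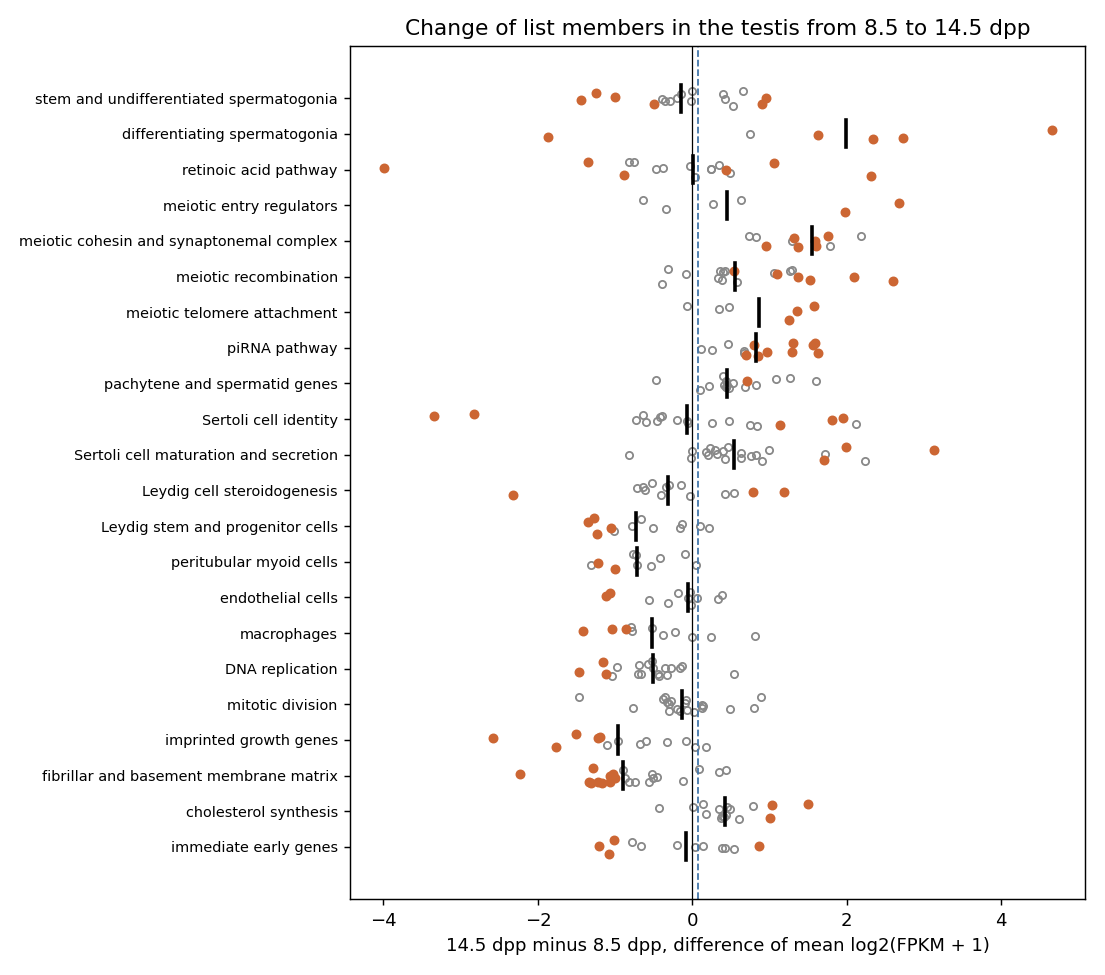
Difference between 14.5 and 8.5 dpp in mean log2(FPKM + 1) (horizontal axis) for the tested members of 22 gene groups (vertical axis). Filled points are called genes, open points are not called, black bars are group medians and the dashed line is the median of all genes tested (0.07). Genes listed at 0 in all 8.5 dpp testes are not drawn but count in the medians. Groups of differentiating spermatogonia and meiosis lie to the right, and those of matrix, interstitium and imprinted genes to the left.

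Of 6 tested genes of differentiating spermatogonia 4 rose and 1 fell, and the median log2 difference was 1.99 against 0.07 for all genes tested. Kit, the receptor of stem cell factor that marks differentiating spermatogonia, had 4.96, 5.13 and 4.10 FPKM at 8.5 dpp and 15.1 and 18.5 FPKM at 14.5 dpp. The groups did not overlap and the ratio was 3.55 (log2 difference 1.63, SE 0.14, adjusted p = 0.00358). Sohlh1 and Sohlh2 are partner transcription factors of spermatogonial differentiation. Sohlh1 rose from 2.93, 2.501 and 4.16 FPKM to 19.5 and 20.6 FPKM, and Sohlh2 from 2.69, 2.501 and 2.10 FPKM to 18.0 and 26.2 FPKM. The gene that fell was Ccnd2, which encodes cyclin D2 of the G1 phase and is also used by somatic cells. It had 245, 240 and 271 FPKM at 8.5 dpp and 83.5 and 55.9 FPKM at 14.5 dpp, 3.61 times less (adjusted p = 0.00409). Dmrt1, a regulator of both spermatogonia and Sertoli cells, read 90.6, 81.8 and 72.5 FPKM and then 138 and 136 FPKM, which missed the required ratio of 2. Stra8, the retinoic acid target at meiotic entry, was not analysed here.

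Of 17 tested genes of stem and undifferentiated spermatogonia 2 rose and 4 fell, with a median log2 difference of -0.14 that turned to 0.02 without testis 2. Both that rose encode transcription factors of undifferentiated spermatogonia. Zbtb16 (PLZF) rose from 2.93, 3.41 and 2.73 FPKM to 6.54 and 6.50 FPKM, and Foxo1 from 11.0, 11.5 and 12.8 FPKM to 24.5 and 23.0 FPKM. The genes that fell, Etv5, Bcl6b, Lhx1 and Egr2, are known as targets of GDNF signalling in stem cell cultures. Etv5, which Sertoli cells also express, fell from 25.2, 26.9 and 22.6 FPKM to 10.8 and 8.99 FPKM (adjusted p = 0.00425). Bcl6b fell from 6.90, 5.82 and 5.97 FPKM to 1.92 and 1.39 FPKM. Egr2 stayed under 1 FPKM in all 5 testes and was called in 9 of 15 alternative settings. The other 11 tested genes of the group were not called. The GDNF receptor genes were not called, with 5.18, 6.36 and 6.204 FPKM and then 5.99 and 4.15 FPKM for Gfra1, and 4.27, 4.84 and 5.07 FPKM and then 5.54 and 3.96 FPKM for Ret. Gdnf itself read 6.92, 5.71 and 6.12 FPKM at 8.5 dpp and 6.48 and 5.33 FPKM at 14.5 dpp, so its ranges overlapped. A change in GDNF signalling was not tested.

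In the retinoic acid pathway the binding proteins moved most, and in opposite directions. Crabp1 and Crabp2 are cytoplasmic carriers of retinoic acid, of which CRABP2 delivers it to nuclear receptors. Crabp1 had 17.8, 17.9 and 18.5 FPKM at 8.5 dpp and 93.6 and 93.7 FPKM at 14.5 dpp (ratio 5.19, log2 difference 2.31, SE 0.09, adjusted p = 0.00106). The values within each age were nearly equal. Crabp2 had 42.4, 51.1 and 62.7 FPKM at 8.5 dpp and 2.87 and 1.80 FPKM at 14.5 dpp, 22.3 times less (log2 difference -3.99, SE 0.22, adjusted p = 0.00163).

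Among enzymes that make retinoic acid, Aldh1a1 read 357, 339 and 345 FPKM at 8.5 dpp and 250 and 167 FPKM at 14.5 dpp, without reaching the ratio of 2. Aldh1a2 read 1.32, 1.57 and 1.34 FPKM and then 1.79 and 1.87 FPKM. Cyp26b1, the degrading enzyme that shields germ cells in the fetal testis, was not called, with 93.5, 87.5 and 83.0 FPKM and then 130 and 96.4 FPKM. Of the receptors, Rarg rose from 1.86, 1.42 and 1.56 FPKM to 4.05 and 4.81 FPKM, and Lrat, which stores retinol as esters, rose at low levels. Dhrs4, a retinal reductase, fell. In all, 3 of 16 tested genes of the pathway rose and 3 fell, with a median of 0.00, which was -0.19 without testis 1 and 0.19 without testis 2.

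**Figure D2:**
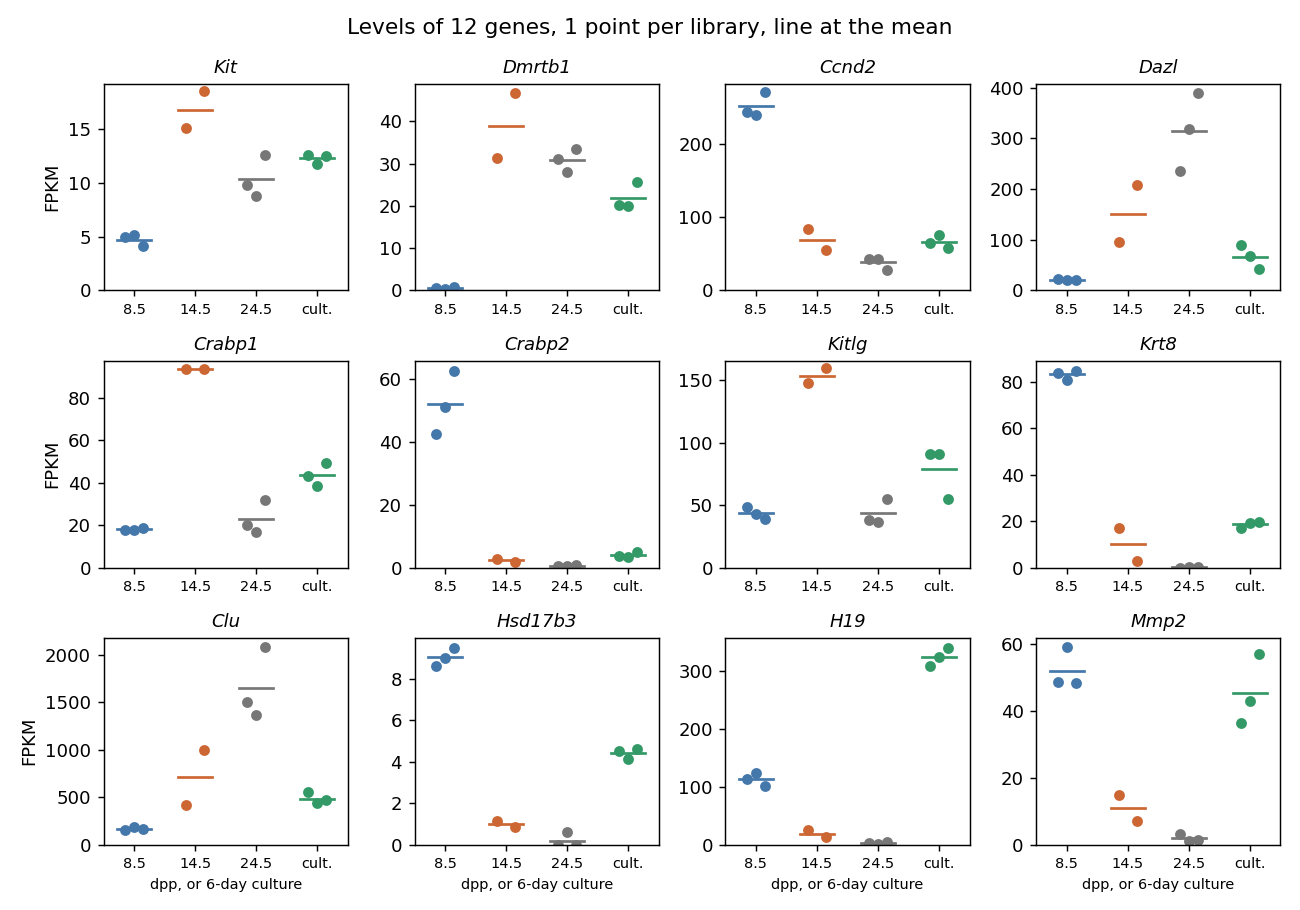
FPKM (vertical axes, from 0) of 12 genes in testes of 8.5, 14.5 and 24.5 dpp and in explants cultured for 6 days from 8.5 dpp, with 1 point per library and a line at the mean. Kit, Dmrtb1, Dazl, Crabp1, Kitlg and Clu are higher at 14.5 than at 8.5 dpp, and Ccnd2, Crabp2, Krt8, Hsd17b3, H19 and Mmp2 are lower. H19 stands at 309 to 340 FPKM in the cultured explants.

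Of 6 tested regulators of meiotic entry 2 rose, and the median log2 difference was 0.45. Dazl encodes an RNA-binding protein that germ cells need to respond to meiosis-inducing signals. It had 21.9, 20.6 and 21.1 FPKM at 8.5 dpp and 94.9 and 208 FPKM at 14.5 dpp (ratio 7.14, log2 difference 2.67, SE 0.32, adjusted p = 0.00520). Rbm46, an RNA-binding protein of the MEIOC and YTHDC2 complex, rose from 7.01, 7.06 and 8.88 FPKM to 27.8 and 39.1 FPKM. The other 4 genes were not called. They include repressors of germline genes in somatic and mitotic cells, with E2f6 at 42.0, 44.3 and 44.7 FPKM and then 36.2 and 32.3 FPKM, and Max at 12.6, 14.03 and 15.9 FPKM and then 18.3 and 16.1 FPKM. Meiosin, Meioc, Ythdc2 and Mga were not analysed here.

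Because E2F6 and MAX complexes are known to hold meiotic genes silent through E2F sites and E-boxes, these letters were looked for in the 250 bases before the RefSeq start of each gene (rat build GRCr8, both strands, first listed start). The E-box was searched as CACGTG, the E2F site as GCGGGAA, and the sequence reported for STRA8 as CNCCTCAG. Promoters were found for 10 of the cohesin and synaptonemal complex genes in the file, and 4 held CACGTG, 5 held GCGGGAA and 2 held CNCCTCAG. The other meiotic groups differed from this one, with CACGTG in 1 of 14 recombination promoters, 0 of 5 telomere promoters and 6 of 16 piRNA promoters. GCGGGAA was in 2 of 14, 3 of 5 and 1 of 16 of them, and CNCCTCAG in 3 of 14, 1 of 5 and 0 of 16. Among all 27457 promoters the shares were 5.79%, 3.58% and 7.04%, and among the promoters of tested genes 8.57%, 6.74% and 7.94%. Of the promoters of genes that rose, 12.4% held CACGTG, 6.67% GCGGGAA and 10.3% CNCCTCAG, and of those that fell 6.77%, 4.86% and 5.90%. These matches describe letters and not binding.

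Promoters of 4 genes are shown because they belong to the spermatogonial and meiotic groups and carry these letters, which are in capitals. Tex12, a central element protein of the synaptonemal complex, and Hormad1, which marks unsynapsed axes, each hold GCGGGAA and CACGTG. Sycp3, the axial core of the complex, holds CACGTG at 2 places, and Sohlh1 at 3 places. Tex12 lies at chr8:59809559-59809808 (minus strand), Hormad1 at chr2:185805422-185805671 (plus strand), Sycp3 at chr7:24761226-24761475 (plus strand) and Sohlh1 at chr3:29065589-29065838 (minus strand).
Tex12: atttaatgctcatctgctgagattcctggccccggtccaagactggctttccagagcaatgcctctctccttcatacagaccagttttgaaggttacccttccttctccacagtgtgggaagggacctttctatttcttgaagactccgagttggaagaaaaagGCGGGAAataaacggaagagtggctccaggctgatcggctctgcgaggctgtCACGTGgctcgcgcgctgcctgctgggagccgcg
Hormad1: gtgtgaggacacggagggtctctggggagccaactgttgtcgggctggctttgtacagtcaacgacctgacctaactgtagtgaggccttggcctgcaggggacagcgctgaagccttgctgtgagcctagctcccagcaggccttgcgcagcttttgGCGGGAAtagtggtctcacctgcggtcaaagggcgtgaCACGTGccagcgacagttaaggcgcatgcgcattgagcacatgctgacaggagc
Sycp3: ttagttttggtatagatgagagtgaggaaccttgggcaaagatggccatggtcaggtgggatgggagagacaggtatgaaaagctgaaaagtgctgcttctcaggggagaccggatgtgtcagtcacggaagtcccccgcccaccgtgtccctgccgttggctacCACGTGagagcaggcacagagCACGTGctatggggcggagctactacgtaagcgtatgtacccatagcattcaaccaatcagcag
Sohlh1: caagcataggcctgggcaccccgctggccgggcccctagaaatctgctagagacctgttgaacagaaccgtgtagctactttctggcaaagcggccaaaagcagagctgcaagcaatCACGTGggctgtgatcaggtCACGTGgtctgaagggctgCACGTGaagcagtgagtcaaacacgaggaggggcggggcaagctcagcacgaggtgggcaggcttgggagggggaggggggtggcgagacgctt

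Sohlh1, with CACGTG at 3 places, was at nearly the same level in both 14.5 dpp testes, whereas Sycp3 and Hormad1 differed several-fold between them, as given next. The promoters of Kit, Sohlh2 and Dmrtb1, which also rose, held none of the 3 sequences.

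Genes of meiotic cohesin and the synaptonemal complex were higher at 14.5 dpp in every member. All 13 tested genes had a positive difference and no overlap between the ages, 7 rose, and the median log2 difference was 1.55 (1.37 without Rec8 and Tex12, which were listed at 0 in all 8.5 dpp testes). Each of the 13 was higher in testis 2 than in testis 1. With testis 1 left out, 13 were called and the median was 2.08, and with testis 2 left out 7 were called and the median was 0.77. In these fits the lone 14.5 dpp testis is assumed to vary like the 8.5 dpp testes.

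Sycp3 had 2.58, 2.68 and 2.88 FPKM at 8.5 dpp, 6.17 FPKM in testis 1 and 38.4 FPKM in testis 2 of 14.5 dpp. Both were above all 8.5 dpp values, but the spread between them left Sycp3 uncalled (log2 difference 2.18, SE 0.68, adjusted p = 0.0501). Hormad1 rose from 2.86, 2.79 and 2.97 FPKM to 5.70 and 24.7 FPKM, with an adjusted p of 0.0476 that ranged up to 0.117 over the alternative settings. Sycp2, the partner of SYCP3 in the lateral element, read 0.0703, 0.0737 and 0.0554 FPKM and then 0.704 and 6.88 FPKM. Sycp1, the transverse filament, read 0.200, 0.177 and 0.191 FPKM and then 0.528 and 1.92 FPKM. Neither was called.

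Fkbp6, Syce3 and Tex12 were called under all 16 alternative settings. Fkbp6, a co-chaperone needed for synapsis and for the piRNA pathway, rose from 30.7, 27.7 and 27.4 FPKM to 60.6 and 93.2 FPKM (log2 difference 1.37, SE 0.19, adjusted p = 0.00675). Syce3, of the central element, rose from 3.05, 5.37 and 3.496 FPKM to 11.1 and 17.0 FPKM. Tex12, whose product pairs with SYCE2, was listed at 0 in the 3 testes of 8.5 dpp and had 10.9 and 28.1 FPKM at 14.5 dpp. Of the cohesin subunits, Smc1b rose from 2.78, 2.43 and 3.57 FPKM to 6.50 and 17.2 FPKM, and Stag3 read 1.66, 1.34 and 1.68 FPKM and then 2.62 and 9.81 FPKM and was not called. Rec8, the meiotic kleisin, was listed at 0 in the 8.5 dpp testes and had 0.470 and 4.79 FPKM at 14.5 dpp.

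**Figure D3:**
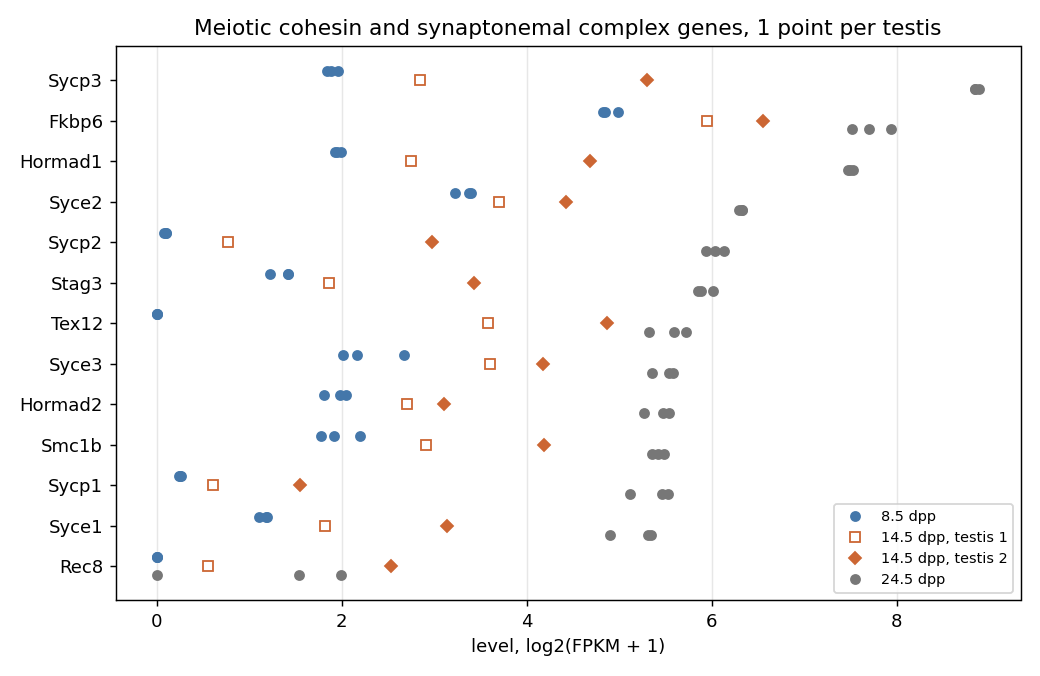
Level in log2(FPKM + 1) (horizontal axis) of 13 meiotic cohesin and synaptonemal complex genes (vertical axis) in each testis of 8.5, 14.5 and 24.5 dpp. Testis 2 of 14.5 dpp (filled diamonds) lies to the right of testis 1 (open squares) in all 13 rows, and both lie to the right of the 8.5 dpp testes.

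For meiotic recombination, 7 of 20 tested genes rose and none fell by the limma test, while 13 genes had an unadjusted p below 0.05, among them Psmc3ip, which was lower at 14.5 dpp. The median log2 difference was 0.55, and 0.89 without testis 1. Tex15, needed for double-strand break repair and for silencing transposons, rose from 10.8, 11.1 and 12.1 FPKM to 61.7 and 87.2 FPKM (ratio 6.57, log2 difference 2.59, SE 0.17, adjusted p = 0.00241). Prdm9, the methyltransferase that places break hotspots, rose from 0.216, 0.250 and 0.210 FPKM to 1.63 and 9.30 FPKM. Dmc1, the meiotic strand-exchange protein, rose from 0.765, 0.553 and 0.448 FPKM to 1.57 and 7.11 FPKM (adjusted p = 0.0483).

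Some genes of the group were near the floor of the file. Spo11, the enzyme that makes the breaks, was listed at 0 in 4 of the 5 testes and read 1.002 FPKM in testis 2 of 14.5 dpp. Msh4, which stabilises crossover intermediates, stayed under 0.5 FPKM and was not tested. Ccnb1ip1 (HEI10), a crossover ligase, rose from 5.87, 6.06 and 6.08 FPKM to 13.4 and 21.7 FPKM. Of 6 tested genes that tether telomeres to the nuclear envelope, Terb2, Majin and Spdya rose. Terb2 went from 0.699, 0.560 and 0.707 FPKM to 2.05 and 4.82 FPKM, and Majin from 0.0901, 0.150 and 0.192 FPKM to 0.922 and 2.89 FPKM. Sun1, Cdk2 and Terf1, which have roles in mitotic cells too, were not called.

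The piRNA pathway silences transposons in germ cells. Of 14 tested genes, 9 rose and none fell by the limma test (12 had an unadjusted p below 0.05), all 14 had a positive difference, and the median was 0.83. With testis 2 left out, 5 rose. Ddx4, the germ cell helicase VASA, rose from 3.71, 4.01 and 3.55 FPKM to 10.8 and 16.2 FPKM (log2 difference 1.58, SE 0.17, adjusted p = 0.00477). Tdrd1, a Tudor scaffold of the piRNA granules, rose from 3.39, 3.64 and 3.82 FPKM to 12.0 and 14.7 FPKM. Of the PIWI proteins, Piwil2 (MILI) rose from 4.73, 5.21 and 4.48 FPKM to 9.31 and 11.4 FPKM, and Piwil1 (MIWI), of pachytene spermatocytes, rose from 0.0794, 0.158 and 0.0658 FPKM to 0.551 and 1.38 FPKM. Piwil4, which acts in fetal germ cells, read 2.95, 2.77 and 1.74 FPKM and then 3.69 and 3.80 FPKM, and was not called.

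Genes of pachytene spermatocytes and spermatids were mostly low. Of 17 tested only Rfx2, a transcription factor of spermatids, rose, from 0.747, 0.922 and 0.592 FPKM to 1.54 and 2.24 FPKM. Without testis 1, 7 were called, and without testis 2 none was, Rfx2 included. Hspa2, a chaperone of pachytene cells, read 14.3, 13.8 and 12.7 FPKM and then 23.0 and 26.8 FPKM, under the required ratio. Testis 2 of 14.5 dpp read low values at several spermatid genes, at which testis 1 read less or 0. Traces of some of them were also read at 8.5 dpp. Tnp1, a transition protein of condensing spermatids, was listed at 0 in testis 1, at 13.1 FPKM in testis 2, and at 0, 2.85 and 0 FPKM at 8.5 dpp. Tnp2 read 1.11 FPKM in testis 1 and 9.47 FPKM in testis 2, and 1.30, 0.615 and 0 FPKM at 8.5 dpp. Odf1 read 1.77 FPKM in testis 1 and 4.18 FPKM in testis 2, and 1.42, 1.34 and 0 FPKM at 8.5 dpp.

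These levels were small beside those of the adult testis. In testis 2, Tnp1 stood at 0.142% and Tnp2 at 0.220% of the mean level of the 53.5 dpp testes, and Odf1 and Akap4 at 0.0807% and 0.0951%. In the same testis Sycp3 stood at 33.8%, Hormad1 at 61.6% and Smc1b at 54.7% of the 53.5 dpp mean. In testis 1 the shares were 5.43%, 14.2% and 20.7%. Tnp1, Tnp2, Odf1 and Akap4 in testis 2 were also above their means in the older testes of 24.5 dpp. Those means were 0, 1.62, 2.75 and 0.267 FPKM, beside 13.1, 9.47, 4.18 and 0.979 FPKM in testis 2. Acrv1 went the other way, at 0 in testis 2 and 0.0982 FPKM at 24.5 dpp. The part of spermatid transcripts in the results for testis 2 was not tested.

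**Figure D4:**
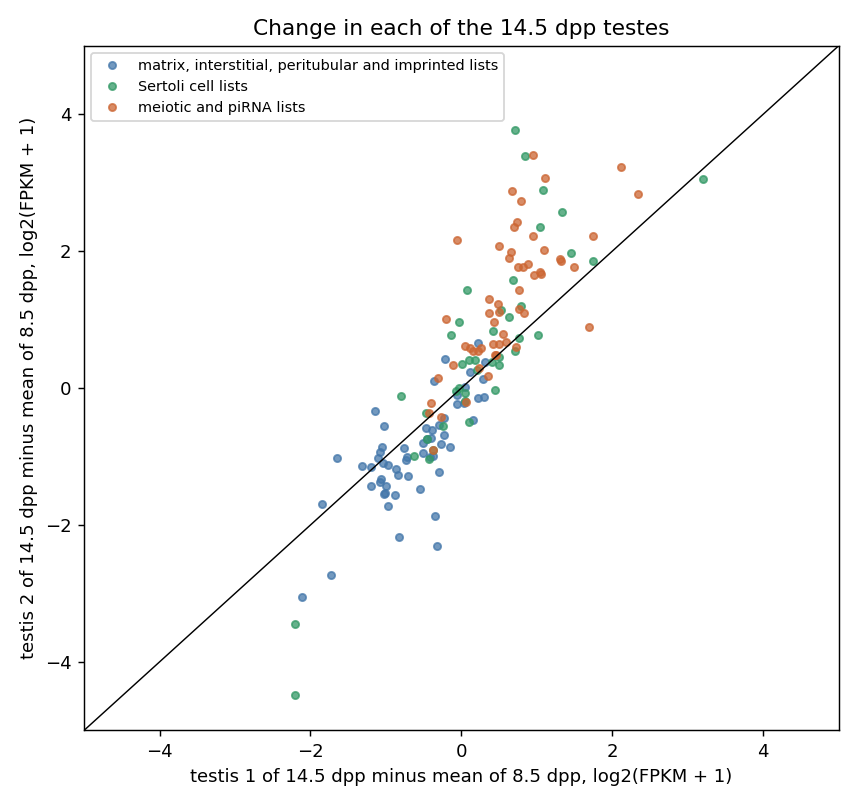
Change of each of the 14.5 dpp testes from the mean of the 8.5 dpp testes, in log2(FPKM + 1), with testis 1 on the horizontal and testis 2 on the vertical axis. Points are tested genes of the meiotic and piRNA groups, the Sertoli cell groups, and the matrix, Leydig progenitor, peritubular and imprinted groups, and the line marks equal change. Most meiotic points lie above the line, and genes listed at 0 in all 8.5 dpp testes are not drawn.

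Among 19 tested identity genes of Sertoli cells, which nurse the germ cells, 3 rose and 2 fell, with a median log2 difference of -0.07 that turned to 0.05 without testis 2. Clu (clusterin), a secreted glycoprotein, rose from 153, 185 and 166 FPKM to 423 and 998 FPKM, and Kitlg, the ligand of KIT, from 48.7, 42.5 and 39.1 FPKM to 148 and 159 FPKM (log2 difference 1.80, SE 0.12, adjusted p = 0.00287). Cst9l, a cystatin, rose from 6.64, 5.41 and 6.07 FPKM to 10.3 and 20.1 FPKM. The falling genes were the paired keratins of immature Sertoli cells. Krt8 fell from 84.1, 80.8 and 85.0 FPKM to 17.3 and 2.76 FPKM, and Krt18 from 11.0, 10.6 and 8.28 FPKM to 1.37 FPKM in testis 1 and 0 in testis 2.

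Lineage factors of Sertoli cells were not called. Sox9 read 40.5, 39.9 and 29.0 FPKM and then 56.5 and 75.3 FPKM, and Wt1 120, 107 and 98.8 FPKM and then 116 and 144 FPKM. Amh, the hormone of immature Sertoli cells, read 126, 85.7 and 73.8 FPKM at 8.5 dpp and 52.8 and 85.3 FPKM at 14.5 dpp, so its ranges overlapped. Fshr and Inha, the receptor of follicle-stimulating hormone and the inhibin alpha subunit, were not called either.

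Of 22 tested genes of Sertoli cell maturation and secretion, 3 rose and none fell by the limma test (13 had an unadjusted p below 0.05), and the median log2 difference was 0.54. Cldn11, the main claudin of the blood-testis barrier, had 130, 33.9 and 25.0 FPKM at 8.5 dpp, a wide spread, and 454 and 406 FPKM at 14.5 dpp (ratio 6.84, adjusted p = 0.0191). Shbg, the androgen-binding protein, rose from 28.9, 21.4 and 19.7 FPKM to 49.9 and 177 FPKM, and Defb36, a beta-defensin, from 25.9, 22.4 and 21.5 FPKM to 48.9 and 123 FPKM. Other junction genes were near their 8.5 dpp level, with Tjp1 at 36.1, 36.9 and 38.9 FPKM and then 43.0 and 44.8 FPKM, and Gja1 (connexin 43) at 177, 137 and 155 FPKM and then 153 and 156 FPKM. Aqp8, a water channel, read 0.128, 0.0952 and 0.409 FPKM, then 0.962 FPKM in testis 1 and 15.4 FPKM in testis 2. Without testis 1, 5 genes of this group rose and 1 fell.

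Of 14 tested genes of Leydig cell steroid synthesis 2 rose and 1 fell, with a median log2 difference of -0.32 (-0.14 without testis 1). Hsd17b3, which makes testosterone from androstenedione in adult Leydig cells and is also present in fetal Sertoli cells, fell from 8.62, 8.99 and 9.51 FPKM to 1.16 and 0.870 FPKM (8.89 times less, log2 difference -2.32, SE 0.11, adjusted p = 0.00128). Lhcgr, the receptor of luteinising hormone, rose from 1.21, 1.33 and 1.26 FPKM to 2.78 and 5.99 FPKM, and Srd5a1 (5 alpha-reductase) from 3.81, 4.21 and 3.85 FPKM to 5.69 and 9.95 FPKM. Enzymes of the earlier steps overlapped between the ages. Cyp17a1 read 53.0, 99.3 and 78.5 FPKM and then 42.2 and 125 FPKM, and Cyp11a1 19.8, 19.3 and 12.1 FPKM and then 7.83 and 22.5 FPKM. Without testis 2, 1 gene of this group rose and 2 fell.

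Genes of interstitial progenitors and of the tubule wall were lower at 14.5 dpp. Of 12 tested genes of Leydig stem and progenitor cells 4 fell and none rose by the limma test (8 had an unadjusted p below 0.05), with a median log2 difference of -0.72. Pdgfra, a receptor of platelet-derived growth factor, fell from 93.5, 92.3 and 83.5 FPKM to 45.2 and 40.6 FPKM, Tcf21 from 149, 146 and 149 FPKM to 72.8 and 50.3 FPKM, and Pdgfrb from 22.7, 23.9 and 22.4 FPKM to 10.3 and 8.22 FPKM. Among 10 genes of peritubular myoid cells, the contractile cells of the tubule wall, Tagln and Actg2 fell and the median was -0.72. Acta2, their smooth muscle actin, read 292, 261 and 349 FPKM and then 243 and 127 FPKM. Without testis 1, 5 of these 10 genes fell, and without testis 2 none was called and the median was -0.31.

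Among 11 tested endothelial genes Cdh5 and Cd34 fell, with a median log2 difference of -0.05, and Pecam1 read 11.7, 10.1 and 9.76 FPKM and then 11.5 and 9.12 FPKM. Among 11 macrophage genes C1qc, Lyz2 and Cx3cr1 fell and the median was -0.52. Without testis 2, 1 endothelial gene fell. The summed level of the macrophage list ran from 103 to 132 FPKM at 8.5 dpp and stood at 64.5 and 59.0 FPKM at 14.5 dpp. Red blood cell genes summed to between 906 and 1445 FPKM at 8.5 dpp and to 768 and 1038 FPKM at 14.5 dpp, and of 6 tested Slc25a37, a mitochondrial iron importer used by many cells, rose, while 2 were called without testis 1. Of markers from outside the testis, the epididymal genes Lcn5, Lcn8 and Crisp1 were listed at 0 in all 5 testes. The epididymal list as a whole was not absent. It summed to between 98.1 and 116 FPKM at 8.5 dpp and to 93.0 and 157 FPKM at 14.5 dpp. Limma called neither Spink8 nor Cst8, the 2 of this list that were tested (0 had an unadjusted p below 0.05). Of 2 tested adipocyte genes Plin1, a lipid droplet protein, rose to 0.977 and 1.01 FPKM, while the adipocyte genes Adipoq, Lep, Fabp4 and Cidec were under the limit of testing. Of 2 tested skeletal muscle genes the actin Acta1 fell from 4.55, 3.99 and 4.22 FPKM to 2.19 and 1.84 FPKM. The part of these cells in the results above was not tested.

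Of 20 tested replication genes 18 had a negative difference, 3 fell, and the median was -0.51. Prim1, a primase subunit, fell from 55.4, 52.5 and 68.6 FPKM to 24.6 and 17.2 FPKM, and the licensing factor Cdt1 from 35.1, 29.9 and 31.6 FPKM to 15.3 and 12.5 FPKM. Gins1, of the replicative helicase, also fell. Pcna, the sliding clamp, read 273, 234 and 232 FPKM and then 142 and 99.9 FPKM, just under the required ratio. Rrm2, a ribonucleotide reductase subunit, counted as higher but was listed at 0 in all 8.5 dpp testes and at 34.5 and 32.5 FPKM at 14.5 dpp. Without testis 1, 7 of the 20 fell.

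No gene of mitotic division was called among 20 tested with limma, while 9 had an unadjusted p below 0.05, and the median log2 difference was -0.13. Mki67 read 37.1, 39.8 and 45.8 FPKM at 8.5 dpp and 52.5 and 63.2 FPKM at 14.5 dpp. Cdk1, the kinase of mitotic and meiotic entry, read 88.0, 59.1 and 56.6 FPKM and then 40.0 and 13.5 FPKM (adjusted p = 0.0508). Without testis 1, 1 gene of this group rose and 2 fell. The difference between the replication and division groups was not tested.

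Imprinted genes of fetal growth fell in several members. Of 13 tested 5 fell and none rose by the limma test (9 had an unadjusted p below 0.05), and the median log2 difference was -0.96. Without testis 2 the median was -0.45, and 5 still fell. H19, a long non-coding RNA next to Igf2, fell from 113, 123 and 102 FPKM to 25.2 and 12.7 FPKM (5.94 times less, log2 difference -2.58, SE 0.28, adjusted p = 0.00475). Igf2, the fetal growth factor, fell from 20.5, 20.3 and 19.3 FPKM to 7.48 and 8.53 FPKM. Dlk1, a membrane protein of progenitor cells, fell from 109, 130 and 116 FPKM to 32.2 and 35.8 FPKM, and Peg3 and Nnat fell too. Cdkn1c and Igf2r were not called, at 12.9, 13.8 and 11.1 FPKM and then 13.0 and 12.7 FPKM for Cdkn1c.

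Of 23 tested genes of the extracellular matrix 11 fell and none rose by the limma test (19 had an unadjusted p below 0.05), 20 had a negative difference, and the median was -0.90. Without testis 1, 12 fell, and without testis 2, 9. Mmp2, a gelatinase, fell from 48.7, 59.0 and 48.5 FPKM to 15.002 and 6.99 FPKM. The fibrillar collagen gene Col3a1 fell from 432, 440 and 417 FPKM to 186 and 193 FPKM, and Col1a1 from 186, 203 and 168 FPKM to 87.3 and 96.8 FPKM. Col4a1, of basement membranes, fell from 94.5, 111 and 95.6 FPKM to 48.7 and 33.4 FPKM, and Fbn1, Fbn2, Loxl1, Postn, Dcn, Timp1 and Col5a2 completed the group. Eln, which encodes elastin, read 52.8, 48.1 and 36.7 FPKM and then 52.8 and 72.0 FPKM, and Col18a1 79.7, 89.8 and 78.8 FPKM and then 103 and 107 FPKM. Neither was called. Col1a2 was listed at 0 in all 5 testes.

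Of 16 cholesterol synthesis genes 3 rose and 15 had a positive difference, with a median of 0.43. Srebf2, the transcription factor of the pathway, rose from 17.7, 16.9 and 16.4 FPKM to 36.9 and 33.7 FPKM (log2 difference 1.01, SE 0.10, adjusted p = 0.00392), and Mvd, of the mevalonate steps, from 4.47, 3.51 and 5.43 FPKM to 9.55 and 10.6 FPKM. Immediate early genes, which respond quickly to stimuli and to tissue handling, went both ways. Of 12 tested Fos rose, from 0.813, 0.835 and 0.780 FPKM to 2.66 and 1.97 FPKM, while Egr1, Egr3 and Ier3 fell.

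Explants that left the testis at 8.5 dpp and spent the 6 days in culture were compared with the 14.5 dpp testes to ask which parts of the change differed when it did not take place in the animal. Across all genes 7.94% of 11309 tested were called, 5.57% higher and 2.37% lower in culture. An unadjusted limma p below 0.05 was reached by 3839 of the 11309. The authors left this culture time out of their own differential analysis because its cellular composition differed. They also removed the central necrotic area of cultured explants before molecular work. The part of cellular composition in the differences given here was not tested. This comparison shares the 14.5 dpp testes with the one above, so each gene's values are given side by side. No gene of the cohesin and synaptonemal complex group was called among 13 with limma, although 4 had an unadjusted p below 0.05, and the median log2 difference was -0.58. Sycp3 in culture read 7.82, 9.56 and 3.52 FPKM, near the 6.17 FPKM of testis 1 and under the 38.4 FPKM of testis 2. The same test called no gene of recombination among 20 (7 with an unadjusted p below 0.05), of telomere attachment among 6 (0) or of the piRNA pathway among 14 (10). A call that is missed with 2 testes so far apart does not show that these genes moved alike.

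Among spermatogonial genes, Sohlh2 was lower in culture, at 13.3, 10.2 and 9.12 FPKM (log2 difference -0.95, SE 0.22, adjusted p = 0.0371), while Kit read 12.6, 11.8 and 12.5 FPKM and Dmrtb1 20.1, 19.9 and 25.7 FPKM without being called. Crabp1 was lower in culture than at 14.5 dpp, at 43.4, 38.5 and 49.3 FPKM. Crabp2 was not called, at 3.77, 3.21 and 5.02 FPKM. The part of the retinol in the culture medium in these values was not tested. The largest difference in the imprinted group was that of H19, which read 309, 324 and 340 FPKM in culture, above both in vivo ages (log2 difference 4.10, SE 0.27, adjusted p = 0.000890). Dlk1 at 111, 98.9 and 156 FPKM and Mmp2 at 36.4, 43.1 and 57.2 FPKM were higher in culture than at 14.5 dpp and lay near their 8.5 dpp values. Of 15 tested Leydig enzyme genes 8 were lower and 2 higher in culture, and Lhcgr, at 1.01, 0.744 and 0.838 FPKM, was among the lower. Red blood cell genes summed to 5.77 to 10.7 FPKM in culture.

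By 24.5 dpp, 12 of the 13 cohesin and synaptonemal complex genes had risen above 14.5 dpp, among them the 7 that had risen by then, in a comparison that called 35.6% of 11589 tested genes, 14.6% higher and 21.1% lower. Sycp3 stood at 475, 460 and 461 FPKM, and Hormad1 at a mean of 180 FPKM. In the piRNA pathway 13 of 15 tested genes rose, and Piwil1 reached a mean of 229 FPKM. In the matrix group 19 of 23 tested genes fell from 14.5 to 24.5 dpp, 9 of them among the 11 that had fallen by 14.5 dpp. Kitlg and Crabp1, which had risen by 14.5 dpp, fell again to 38.4, 36.8 and 54.7 FPKM and to 19.98, 16.7 and 31.7 FPKM.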

How the data were processed

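RNA was measured by stranded mRNA sequencing of whole rat testes and cultured explants, and 5 of 30 libraries entered the main comparison. The authors aligned reads with STAR 2.5.2a to build rn6 and deposited FPKM per gene as estimated by StringTie with default settings. How strand entered these estimates is not given in the sources used here, so overlapping and antisense genes may share reads. Symbols came from a RefSeq gene table (GRCr8), in which 17172 of 17322 identifiers were found.

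The deposited values were analysed as log2(FPKM + 1). Genes whose median reached 0.5 FPKM in either group were tested with limma (version 3.58.1, R version 4.3.3), with 2 groups per fit. Calls required a Benjamini-Hochberg adjusted p within 0.05 and medians at least 2 times apart. The script was tested on simulated data. Exact permutation of 2 against 3 testes cannot reach 0.05. Same-numbered libraries of different ages are different animals and were not paired.

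Named genes come from 26 lists of cell types and pathways (424 entries, 378 of them in the file) and from the 10 largest called rises and 10 largest called falls. Members and lists were chosen with earlier results of these data known. Promoter letters were searched with Python 3.11.15. Some genes of these lists are not reported here. Depth is unknown.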

Additional observations from a re-analysis of the deposited data

Results flagged for a closer look

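The results given here are genes whose change over the same 6 days differed between the animal and the culture, both starting at 8.5 dpp. The difference was tested directly, as the cultured explants (n = 3) against the 14.5 dpp testes (n = 2) with limma, and only the genes named by list or by rank in the report were searched. Of 110 such genes called between 14.5 and 8.5 dpp, 28 were also called in the culture comparison, in which 7.94% of all genes tested were called. The 2 comparisons share the 14.5 dpp testes, so an error in their level enters both with opposite sign. Genes picked by the first are thereby favoured for a call in the opposite direction in the second. The 7.94% is therefore not a like background for them. The authors left this culture time out of their own differential analysis for its cellular composition, whose part here was not tested. Values are differences in log2(FPKM + 1), culture minus 14.5 dpp testis.

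In 21 genes the level was higher in culture. The difference was 4.10 for H19, 2.33 for Igf2 and 1.79 for Dlk1 among imprinted genes and 2.20 for Timp1 and 2.02 for Mmp2 of the matrix. Among immediate early genes it was 2.52 for Ier3, 1.59 for Fos, 1.47 for Egr1, 1.31 for Egr3 and 1.13 for Egr2. Macrophage and endothelial genes gave 1.77 for Lyz2, 1.17 for C1qc, 0.94 for Cx3cr1 and 1.27 for Cdh5. The remaining higher genes were Pdgfrb with 1.53, Bcl6b with 1.58, Hsd17b3 with 1.43, Angptl8 with 1.36, Sostdc1 with 1.26, Hhatl with 1.04 and Plin1 with 0.86. Of these 21 genes, Fos and Plin1 had also risen in vivo, and the others had fallen.

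In 7 genes that had risen in vivo the level was lower in culture. The difference was -1.50 for Epyc, -1.47 for Lhcgr, -1.18 for Cldn11, -1.14 for Dnajc2, -1.09 for Crabp1, -0.95 for Sohlh2 and -0.86 for Srd5a1. Epyc, Cldn11, Dnajc2, Crabp1 and Sohlh2 were nevertheless above their 8.5 dpp means in culture, while Lhcgr and Srd5a1 were not. Dnajc2 was listed at 0 in an 8.5 dpp testis.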

How the results depend on the processing

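In the comparison of 14.5 with 8.5 dpp, the counts of called genes stayed within 1.5 times of 1769 (994 higher, 775 lower) under other pseudocounts, filters, normalizations, prior variances and the shared fit. They moved with no minimum ratio, to 4704 (2745 higher, 1959 lower), and with the fold of 2 set on the log2(FPKM + 1) scale, to 1050 (553 and 497). Leaving out each replicate in turn gave 1269 to 2501 called genes (703 to 1415 higher, 566 to 1086 lower), the highest without testis 1 and the lowest without testis 2 of 14.5 dpp. Leaving out genes listed at 0 in any library, an alternative chosen after seeing the data, gave 1695. The replicate block gave 1265 (676 and 589). By design, same-numbered libraries of different ages are different animals. Their deviations did not correlate (Pearson r of -0.00575 and -0.0218 over genes). With 2 libraries at 14.5 dpp, whose deviations mirror each other, this cannot decide whether libraries of the same number share a factor.

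For cultured explants against 14.5 dpp (898 called, 630 higher, 268 lower), no minimum ratio gave 1755 (1033 and 722), the log-scale fold 535 (411 and 124), the replicate block 376 (292 and 84) and the shared fit 406 lower. Leaving out each replicate gave 406 to 944 (332 to 597 higher, 74 to 347 lower). For 24.5 against 14.5 dpp (4131 called), lower calls moved from 2444 to 3680 with no minimum ratio and to 1617 with the log-scale fold, and leaving out each replicate gave 2585 to 4365 (1255 to 1769 higher, 1330 to 2596 lower). The cause of these shifts was not tested. With 2 testes at 14.5 dpp that differ, the precision of this age limits every comparison.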

Other observations

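A few genes were far apart in the 14.5 dpp testes without being called. Rhox8, a homeobox gene of Sertoli cells, read 0.965, 1.52 and 1.19 FPKM at 8.5 dpp, 2.95 FPKM in testis 1 and 22.2 FPKM in testis 2, and 50.1 FPKM on average at 24.5 dpp. Wnt4, a signalling ligand, read 2.46 FPKM in testis 1 and 7.92 FPKM in testis 2, and 35.9 FPKM on average in culture. Tpm2, a tropomyosin of contractile cells, went the other way, with 18.5 FPKM in testis 1 and 3.89 FPKM in testis 2. These genes were chosen after their values were seen.

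Dazl stood at 251% and 550% of its mean level in the 53.5 dpp testes in testes 1 and 2 of 14.5 dpp, while Ddx4 stood at 19.1% and 28.5%.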
